A study of Mus musculus with 2 samples.

Results

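Slow, cardiac, smooth muscle and nonmuscle myosin heavy chain genes outside the skeletal cluster on chromosome 11 (Myh6, Myh7, Myh7b, Myh9, Myh10, Myh11 and Myh14) were followed in mouse gastrocnemius, the large calf muscle. They were taken by gene symbol, make up 7 of the 55536 Ensembl genes in the gene table, and all 7 passed the minimum of 50 expected counts on average. Total RNA-seq libraries, reduced in ribosomal RNA, were made from 2 male mice of the B6CASTF1/J strain, an F1 cross, at 36 days of age, which form 1 group with no contrast. Mean ± SD therefore covers replicate 1 and replicate 2 of 1 group (n = 2), and no p-value can be had. The animals carry separate mouse numbers but 1 donor entry in the labels, so that their spread may be partly technical. Replicate 1 was covered by 36952277 expected counts and replicate 2 by 38754338. Reads of the B6 and CAST alleles are not told apart in the files.

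A myosin heavy chain carries the motor head that splits ATP and pulls on actin, and a coiled-coil tail that packs into filaments. In limb muscle the bulk of these filaments is built from fast chains, whereas Myh7 encodes the slow chain of type I fibres, which is also the beta chain of the heart ventricle. Myh6 encodes the alpha chain of the heart, and Myh7b a slow-tonic chain known from extraocular muscle and muscle spindles. Myh11 encodes the chain of smooth muscle. Myh9, Myh10 and Myh14 encode the nonmuscle chains IIA, IIB and IIC, which drive contraction of the cell cortex, cytokinesis and migration in many cell types.

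Of these genes, 3 carry microRNAs of 1 family in an intron, and the mature forms (RefSeq, GRCm38.p6) are shown because the hosts include the gene pair that differed most between the animals. Capitals mark the seed, bases 2 to 8. miR-208a lies between exons 29 and 30 of Myh6-205 (minus strand, chr14:54949072-54949093), miR-208b between exons 31 and 32 of Myh7-201 (minus strand, chr14:54975710-54975731) and miR-499 between exons 19 and 20 of Myh7b-201 (plus strand, chr2:155622893-155622913).
miR-208a-3p: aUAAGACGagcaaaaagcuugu
miR-208b-3p: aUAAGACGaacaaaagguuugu
miR-499-5p: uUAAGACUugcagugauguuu
The seeds of miR-208a-3p and miR-208b-3p were equal at all 7 positions, and that of miR-499-5p matched them at 6 of 7. Over the whole length the miR-208 forms were equal at 19 of 22 positions, whereas miR-499-5p matched miR-208a-3p at 12 and miR-208b-3p at 10 of 21 positions from the 5′ end. Their genes Mir208a, Mir208b and Mir499 were listed at 0 in both animals with an effective length of 0. Their precursors of 83, 77 and 79 bases are shorter than the 100-base reads, and their levels cannot be read from these tables.

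Together the 7 genes held 94.4 TPM (a relative transcript abundance scaled by length) in replicate 1 and 137 TPM in replicate 2. The 6 skeletal genes on chromosome 11 (Myh1, Myh2, Myh3, Myh4, Myh8 and Myh13) summed to 12506 TPM in replicate 1 against 13241 in replicate 2. The 7 genes thus made up 0.750% of the TPM of both sets in replicate 1 against 1.02% in replicate 2. On mean TPM their order was Myh7, Myh9, Myh6, Myh14, Myh11, Myh10 and Myh7b. For 5 of the 6 neighbouring pairs the order of the means held in both animals, and the exception was Myh6 with Myh14.

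**Figure D1:**
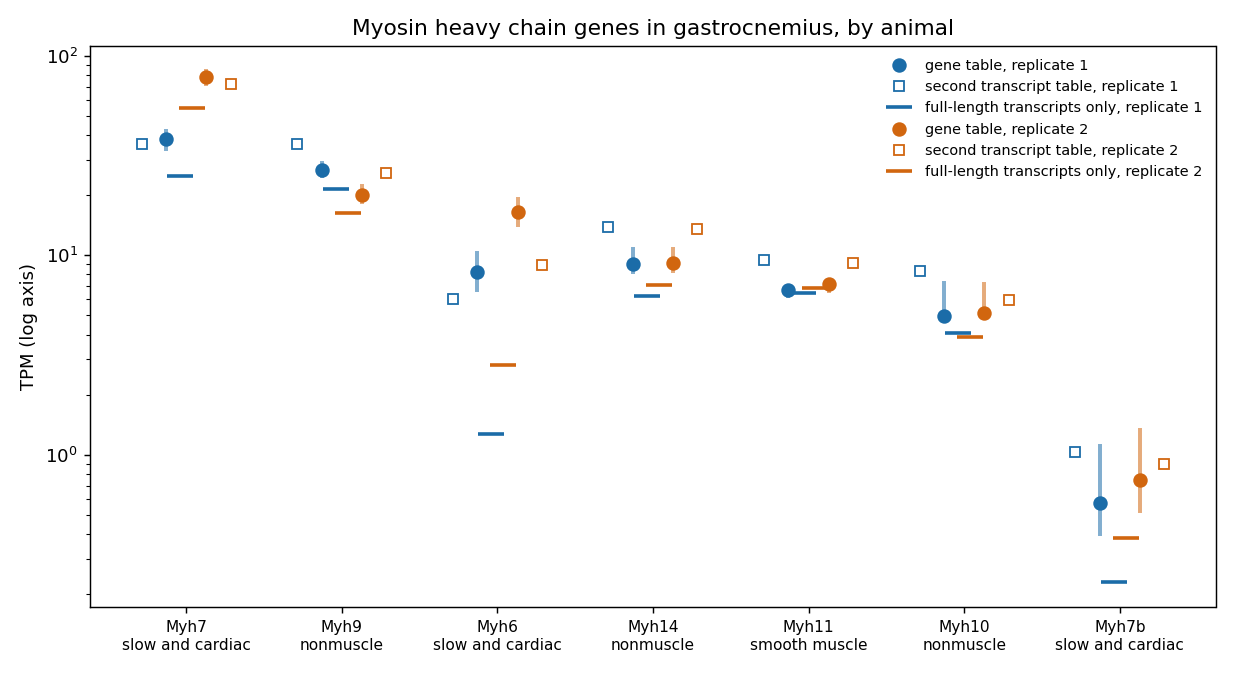
TPM of the 7 genes on a log axis, in order of mean TPM, with replicate 1 (blue) left of replicate 2 (orange). Filled circles are the gene table with its deposited credibility interval as a bar, open squares the second transcript table, and dashes the sum over transcripts with a coding length of at least 5000 bases. Myh7 was highest and Myh7b lowest in every version, while the dash for Myh6 lay far below its circle (1.27 against 8.19 TPM in replicate 1).

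Myh7 (ENSMUSG00000053093.16, chromosome 14, minus strand, 54970684-54994626, mm10), the slow chain, was at 38.3 TPM in replicate 1 and at 78.5 in replicate 2, or 58.4 ± 28.4 TPM. These values rested on 4896 expected counts in replicate 1 against 10795 in replicate 2, and the deposited credibility intervals, 34.0 to 41.8 and 71.9 to 83.3 TPM, did not overlap. The log2 ratio of replicate 1 over replicate 2, on the TPM + 0.1 scale used for all ratios here, was -1.03. Replicate 2 was thus just over 2-fold above replicate 1. In bulk tissue, fewer cells of a type and less RNA per cell cannot be told apart.

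Myh6, the alpha cardiac chain (ENSMUSG00000040752.16, chromosome 14, minus strand, 54941921-54966927), was at 8.19 TPM in replicate 1 and at 16.4 in replicate 2, or 12.3 ± 5.81 TPM, on 334 and 715 expected counts. The credibility intervals, 6.70 to 10.2 and 14.1 to 19.1 TPM, did not overlap. Its log2 ratio was -0.99 in the gene table but -0.56 in the second transcript table, where Myh6 was 6.06 TPM in replicate 1 against 8.96 in replicate 2. The mean of 12.3 TPM was 7.51 TPM in the second table and 2.04 TPM over full-length transcripts alone, a view added after the data were seen. Heart markers beside Myh6 were low or absent apart from Actn2, which encodes the alpha-actinin of the Z-disc in skeletal muscle as well. Of the 10 heart markers, Myh6 among them, 4 reached 1 TPM in both animals. Nppa, Nppb, Myl7 and Mybpc3, which encode natriuretic peptides, an atrial light chain and the cardiac myosin-binding protein, were at 0. Myl4, an atrial light chain, was 3.33 TPM in replicate 1 against 2.24 in replicate 2, and Tnnt2, cardiac troponin T, 2.18 and 2.19 TPM. The heart list summed to 427 TPM in replicate 1 against 444 in replicate 2, of which Actn2 held 413 and 423 TPM.

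Myh7b, the slow-tonic chain (ENSMUSG00000074652.3, chromosome 2, plus strand, 155611212-155634307), was at 0.570 TPM in replicate 1 and at 0.750 in replicate 2, or 0.660 ± 0.127 TPM. It rested on 51.0 expected counts in replicate 1 against 80.0 in replicate 2, and its intervals, 0.402 to 1.11 and 0.524 to 1.33 TPM, overlapped. The log2 ratio was -0.34 in the gene table and 0.19 in the second transcript table, so no direction can be given for it, and its mean over full-length transcripts alone was 0.305 TPM. Myh7 made up 81.4% and 82.1% of the TPM of these 3 slow and cardiac genes, which summed to 47.1 TPM in replicate 1 against 95.6 in replicate 2.

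Myh9, nonmuscle chain IIA (ENSMUSG00000022443.17, chromosome 15, minus strand, 77760587-77842175), was the most abundant of the nonmuscle genes at 26.7 TPM in replicate 1 against 19.9 in replicate 2, or 23.3 ± 4.82 TPM. Its 5154 expected counts in replicate 1 against 3930 in replicate 2 gave intervals of 24.9 to 29.1 and 18.5 to 22.2 TPM, which did not overlap. The log2 ratio was 0.42, so Myh9 was the 1 member higher in replicate 1 with intervals apart, by less than 2-fold.

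Myh14, nonmuscle chain IIC (ENSMUSG00000030739.18, chromosome 7, minus strand, 44605803-44670843), was 9.02 TPM in replicate 1 against 9.13 in replicate 2, or 9.07 ± 0.0778 TPM, on 1334 and 1467 expected counts, and averaged 13.7 TPM in the second transcript table. Myh10, nonmuscle chain IIB (ENSMUSG00000020900.15, chromosome 11, plus strand, 68691559-68816632, outside the skeletal cluster), was 4.93 TPM in replicate 1 against 5.15 in replicate 2, or 5.04 ± 0.156 TPM, on 1025 and 994 expected counts. The intervals of both genes overlapped between the animals, and their log2 ratios were -0.02 and -0.06. For Myh10 the TPM of replicate 1 fell just under its own interval of 4.95 to 7.21, and the second transcript table gave a log2 ratio of 0.48, so the sign of its ratio depends on the table. Within the nonmuscle genes Myh9 held 65.7% of TPM in replicate 1 against 58.2% in replicate 2, Myh14 22.2% and 26.7%, and Myh10 12.1% and 15.1%. The nonmuscle genes summed to 40.7 TPM in replicate 1 against 34.2 in replicate 2. They made up 43.1% of the 7 genes in replicate 1 and 25.0% in replicate 2.

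Myh11, the smooth muscle chain (ENSMUSG00000018830.10, chromosome 16, minus strand, 14194535-14291372), was 6.67 TPM in replicate 1 against 7.13 in replicate 2, or 6.90 ± 0.325 TPM, on 1327 and 1405 expected counts. Its intervals, 6.22 to 6.98 and 6.64 to 7.43 TPM, overlapped, and the log2 ratio was -0.09. Myh11 made up 7.06% of the 7 genes in replicate 1 and 5.21% in replicate 2.

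A gene was counted as past the fold rule at an average of 50 expected counts or more with a TPM + 0.1 ratio of at least 2-fold. Of the 7 genes 1, Myh7, passed, against 2.83% of the 11632 genes tested (329 genes). It was higher in replicate 2, as were 0.576% of the tested genes, whereas 2.25% were higher in replicate 1. With non-overlapping intervals also required, Myh7 still passed, against 2.21% of tested genes in either direction and 0.447% higher in replicate 2. No member passed in the second transcript table, where Myh7 was 36.1 TPM in replicate 1 against 72.1 in replicate 2, or with TPM rescaled to nuclear protein-coding genes, where its log2 ratio was -0.96. Over all genes, 458 passed in the second transcript table and 407 with the rescaled TPM. Myh6, with a log2 ratio of -0.99, lay just short of 2-fold. Deposited intervals did not overlap for 3 of the 7 genes, Myh6, Myh7 and Myh9, against 18.9% of all tested genes. The median log2 ratio over all tested genes was 0.00.

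The genes of slow fibres were set beside Myh7. Of 15 listed, 14 reached a mean of 0.5 TPM: replicate 2 was higher for 11 and replicate 1 for 3, and their median log2 ratio was -0.60. By comparison, 50.5% of all tested genes, filtered on counts rather than TPM, were higher in replicate 2, and slightly fewer were higher in replicate 1. Of the 13 listed genes with 50 expected counts, 4 were past 2-fold and higher in replicate 2, and 2 were past 2-fold and higher in replicate 1. Among all tested genes these shares were 0.576% and 2.25%. The ratios nearest to that of Myh7 were those of Tnnt1 and Tnnc1, slow troponin T and slow and cardiac troponin C, and Myl3, a slow essential light chain. Tnnt1 was 36.0 TPM in replicate 1 against 73.2 in replicate 2 (log2 ratio -1.02), Tnnc1 23.7 and 48.9 TPM (-1.04) and Myl3 58.5 and 118 TPM (-1.01). They were picked for their ratio, so their shared direction with Myh7 is no separate result.
The highest of the list were Mybpc1, slow myosin-binding protein C, at 511 TPM in replicate 1 against 314 in replicate 2 (0.70), and Myl2, the slow regulatory light chain, at 119 and 164 TPM (-0.47). The largest ratio was that of Pln, phospholamban, an inhibitor of the calcium pump, at 0.680 TPM in replicate 1 against 1.82 in replicate 2 (-1.30). Pln had 23 and 73 expected counts, too few on average to be among the 13. The lowest level was that of Sln, sarcolipin, with 4 and 2 expected counts. Csrp3, a Z-disc LIM protein, ran the other way at 56.5 TPM in replicate 1 against 23.4 in replicate 2 (1.27), and so did Myl6b, an essential light chain, at 5.13 and 2.26 TPM (1.15). Csrp3 and Myl6b are named because they are the 2 counted higher in replicate 1, and were chosen after their values were seen.

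**Figure D2:**
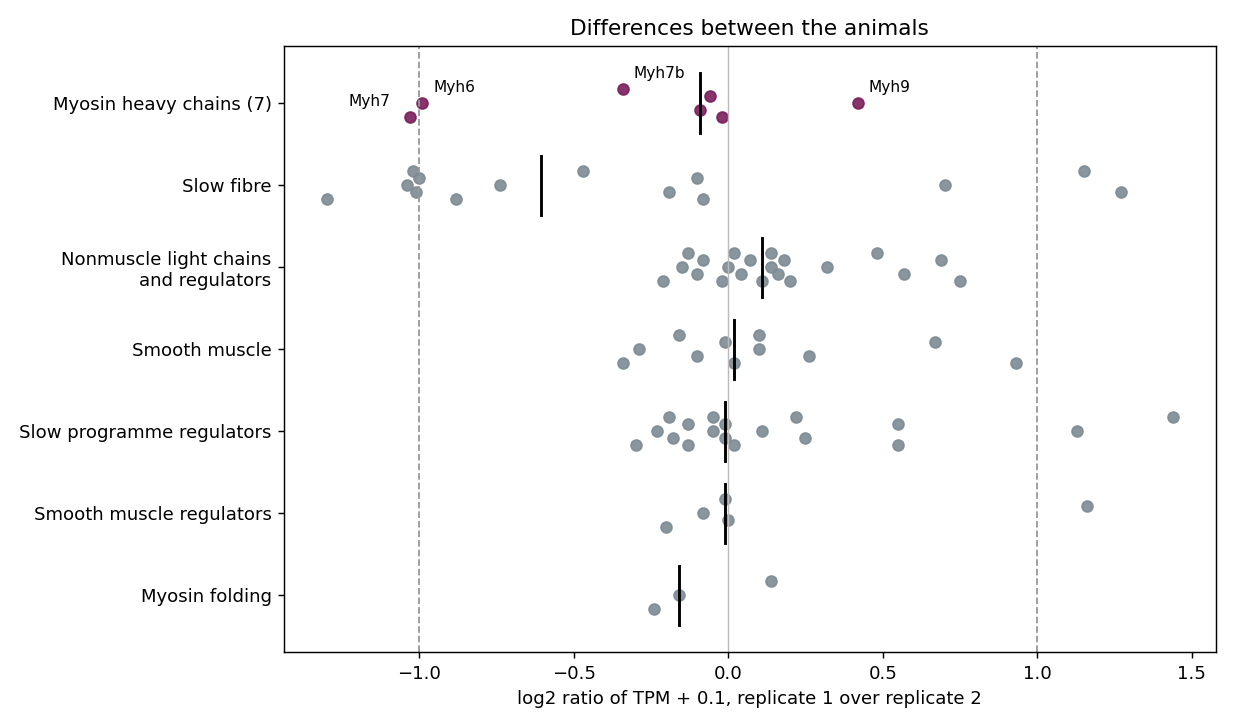
log2 ratio of TPM + 0.1, replicate 1 over replicate 2, for the 7 genes (purple) and for genes of each partner list with a mean of at least 0.5 TPM (grey). Vertical black lines are medians and dashed lines the 2-fold marks. Myh6 and Myh7 lie near the left mark with several slow fibre genes (list median -0.60), while the nonmuscle and smooth muscle lists have medians of 0.11 and 0.02.

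The slow programme regulators, transcription factors and calcineurin signalling genes tied to fibre type, were split: 8 of 18 were higher in replicate 1 and 10 in replicate 2, with a median log2 ratio of -0.01. Mef2c, a MEF2 factor, was 129 TPM in replicate 1 against 134 in replicate 2 (-0.05), Sox6, a repressor of slow fibre genes, 58.3 and 63.8 TPM (-0.13), and Prox1 was lowest at 0.980 and 0.990 TPM. Rcan1, a calcineurin inhibitor that is also a calcineurin target, had the largest ratio, 83.7 TPM in replicate 1 against 30.7 in replicate 2 (1.44). With Ppargc1a, a coactivator of oxidative metabolism at 28.6 TPM in replicate 1 against 13.0 in replicate 2 (1.13), which was named after its value was seen, it was 1 of the 2 past 2-fold. In that direction 2.25% of all tested genes were past 2-fold. The 3 folding factors of muscle myosin had a median of -0.16: Smyd1 was 132 TPM in replicate 1 against 148 in replicate 2, Unc45b, a myosin chaperone, 57.7 and 68.1 TPM, and Hsp90aa1 23.2 and 21.1 TPM.

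Light chains and regulators of nonmuscle myosin were set beside Myh9, Myh10 and Myh14. Of 22 found, 21 reached 0.5 TPM, 14 higher in replicate 1 and 7 in replicate 2, with a median of 0.11 and none past 2-fold. Ppp1cb, a catalytic subunit of myosin phosphatase, was 139 TPM in replicate 1 against 152 in replicate 2, and Myl12a, a regulatory light chain, 123 and 120 TPM. Cnn3, an actin-binding calponin, had the largest ratio at 15.5 TPM in replicate 1 against 9.18 in replicate 2 (0.75), and Mylk3, a myosin light chain kinase of the heart, was lowest at 0.0400 and 0.220 TPM. In the smooth muscle list, set beside Myh11, 6 of 11 genes were higher in replicate 1 and 5 in replicate 2, with a median of 0.02 and none past 2-fold. For lists this small, none past 2-fold is close to the share of all tested genes, 2.83%. Nearest to Myh11 in ratio were Mylk, the smooth muscle light chain kinase (9.11 TPM in replicate 1 against 9.79 in replicate 2, -0.10), Notch3, a receptor of mural cells (3.97 and 4.45 TPM, -0.16), and Des, desmin (740 and 747 TPM, -0.01), which skeletal fibres also express. Synpo2, an actin-associated Z-disc protein, was 78.6 TPM in replicate 1 against 95.9 in replicate 2, Tagln, transgelin, had the largest ratio (24.9 and 13.0 TPM, 0.93), and Actg2, enteric smooth muscle actin, was lowest at 0.430 and 0.160 TPM. Among regulators of smooth muscle genes, Foxo4 was 33.7 TPM in replicate 1 against 38.7 in replicate 2, Srf, serum response factor, 30.1 and 30.4 TPM, and Myocd, myocardin, lowest at 0.310 and 0.480 TPM. Klf4 had the largest ratio, 11.7 TPM in replicate 1 against 5.19 in replicate 2 (1.16).

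Cell type markers differed between the dissected samples. Summed Schwann cell markers were 485 TPM in replicate 1 against 111 in replicate 2 (9 of 9 higher in replicate 1), fibroblast markers 1956 and 1088 TPM (9 of 9), tendon markers 158 and 105 TPM (8 of 8), and macrophage markers 64.8 and 45.9 TPM (8 of 8). All 4 lists were higher in replicate 1, the direction of Myh9, and their part in its difference was not tested. Adipocyte markers summed higher in replicate 2 (108 TPM in replicate 1 against 134 in replicate 2). Of the 7 listed, the 6 with a mean of at least 0.5 TPM were all higher in replicate 2. Lep, below that level, went the other way at 0.450 TPM in replicate 1 against 0.160 in replicate 2. The directions of all tested genes, filtered on counts rather than TPM, were near even, with 50.5% higher in replicate 2 and slightly fewer higher in replicate 1. Smooth muscle and pericyte markers (147 TPM in replicate 1 against 115 in replicate 2), endothelial markers (62.3 and 63.7 TPM), satellite cell markers (743 and 750 TPM, mostly Des) and fast fibre markers (97942 and 97805 TPM) are given for comparison. Platelets are rich in Myh9. Of their markers only Pf4 reached 1 TPM in both animals, and the list summed to 7.28 TPM in replicate 1 against 5.94 in replicate 2. The part of platelets in the Myh9 difference was not tested either.

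Myh6 and Myh7 lie next to each other and share long stretches of sequence. The coding sequences of Myh6 and Myh7 were 91.7% identical over 5802 aligned bases. Of the 5909 windows of 100 bases, the read length, in the full-length transcript Myh6-205, 687 (11.6%) also occurred in a Myh7 transcript and none in another gene. The longest run shared by Myh6-205 and Myh7-201 was 245 bases, in exons 30 and 31 of Myh6-205 (chr14:54948612-54948725 and chr14:54948327-54948457, minus strand, coding) and exons 32 and 33 of Myh7-201. It is shown because a read within it cannot be assigned to either gene on sequence. Capitals mark the run, with 15 bases of Myh6-205 on each side (GENCODE M21 transcript, mm10).
Myh6-205: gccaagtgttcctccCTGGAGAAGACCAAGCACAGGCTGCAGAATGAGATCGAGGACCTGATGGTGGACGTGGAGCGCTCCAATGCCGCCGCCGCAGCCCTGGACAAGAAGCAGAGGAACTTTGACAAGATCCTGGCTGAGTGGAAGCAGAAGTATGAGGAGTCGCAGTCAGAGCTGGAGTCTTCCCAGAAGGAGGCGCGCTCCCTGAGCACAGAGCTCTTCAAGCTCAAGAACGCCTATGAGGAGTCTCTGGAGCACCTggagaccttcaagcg
The short transcript Myh6-207, which the first transcript table made the leading form of Myh6, shared 139 of its 443 windows (31.4%) with Myh7. Its longest run in common with Myh7-201 was 173 bases, in exons 2 and 3 of Myh6-207.
Myh6-207: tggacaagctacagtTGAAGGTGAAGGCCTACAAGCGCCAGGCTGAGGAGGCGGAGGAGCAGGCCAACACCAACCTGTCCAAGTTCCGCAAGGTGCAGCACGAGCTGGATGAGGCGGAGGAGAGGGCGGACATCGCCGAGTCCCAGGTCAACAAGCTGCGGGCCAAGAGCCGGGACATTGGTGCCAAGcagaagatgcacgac
Myh9-201 and Myh10-203 shared only 23 windows, in a run of 122 bases of exon 13 of both, and no window of Myh7b, Myh11 or Myh14 occurred in another gene. Coding identity was 74.9% for Myh9 and Myh11, 74.0% for Myh9 and Myh10, and 52.2% for the least alike pair, Myh6 and Myh14.

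**Figure D3:**
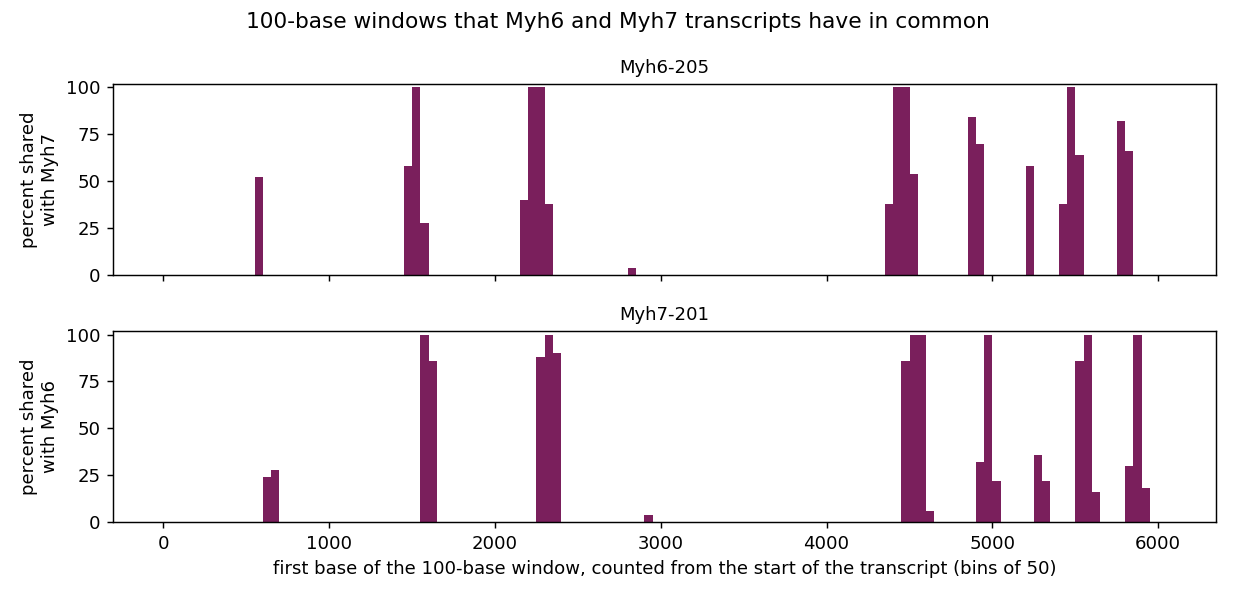
Percent of 100-base windows, in bins of 50 start positions, that occur in both Myh6 and Myh7, along Myh6-205 (top) and Myh7-201 (bottom); the horizontal axis is the window's first base in the transcript. Shared windows, 687 in each transcript, lie in blocks, several of them past base 4300.

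In the first transcript table Myh6-207, of 542 bases, carried 83.5% of Myh6 TPM in replicate 1 and 82.9% in replicate 2, on 95.5 and 191.1 expected counts. Full-length Myh6, those transcripts with a coding length of at least 5000 bases, was at 1.27 TPM in replicate 1 and at 2.80 in replicate 2, on 237.8 and 523.7 expected counts from Myh6-205. A short effective length gives few counts a high TPM. In the second transcript table Myh6-207 was 5.46% in replicate 1 against 0% in replicate 2. The retained-intron transcript Myh6-206, of 718 bases, held 63.1% and 60.5% there, on only 37.45 and 56.04 estimated counts. Full-length transcripts held 87.6% of the Myh6 counts of that table in replicate 1 and 90.7% in replicate 2. Full-length Myh6 was 1.90 and 3.54 TPM there, still lower in replicate 1, and its first-table log2 ratio was -1.08. Counted by full-length transcripts, Myh6 was 2.04 ± 1.08 TPM, behind Myh11, Myh14 and Myh10, and Myh7 was 94.4% of the slow and cardiac genes.

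Myh7-201 (6135 bases) led Myh7 at 64.6% of TPM in replicate 1 against 69.5% in replicate 2 in the first table and 75.2% and 69.6% in the second. The remainder differed by table. The first gave 18.3% in replicate 1 against 15.5% in replicate 2 to the retained-intron Myh7-206 and 15.2% and 13.2% to the short coding Myh7-207, while the second gave 0 to both and 24.1% and 29.5% to Myh7-204, which has the same coding length of 5805 bases. Myh7-202 and Myh7-208 stayed under 2% in both tables. By expected counts of the first table, full-length transcripts held 96.4% of Myh7 in replicate 1 and 96.9% in replicate 2. Full-length Myh7 was at 24.8 TPM in replicate 1 and at 54.7 in replicate 2 in the first table, and 35.8 and 71.4 TPM in the second.

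The 3 listed Myh7b transcripts were thinly covered. Myh7b-201, the full-length form, held 40.4% of TPM in replicate 1 against 50.7% in replicate 2, on 44.85 and 73.37 expected counts, and the retained-intron Myh7b-203 held 56.1% and 37.3% on 5.880 and 5.030 counts. Myh7b-202, a noncoding form, was 3.51% in replicate 1 against 12.0% in replicate 2. In the second table Myh7b-201 led at 59.5% in replicate 1 against 84.1% in replicate 2.

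Myh9-201 held 80.0% of Myh9 TPM in replicate 1 against 82.1% in replicate 2 in the first table, and 86.5% and 83.5% in the second. The noncoding Myh9-203 was next at 13.7% in replicate 1 against 11.9% in replicate 2 in the first table, and 2.14% and 7.66% in the second. The retained-intron forms Myh9-204, Myh9-205, Myh9-206 and Myh9-207 each stayed under 2.4% in both tables, and Myh9-202, annotated for nonsense-mediated decay, was 0 in the first table and 4.12% in replicate 1 against 1.70% in replicate 2 in the second.

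The leading form of Myh10 also differed between the tables. Myh10-203 held 70.8% in replicate 1 against 64.1% in replicate 2 in the first table but 0.0976% and 56.2% in the second, where Myh10-202 held 63.7% and 28.9%. Both are full-length with 41 exons, and only 205 of 7692 windows of Myh10-203 and 242 of 7660 of Myh10-202 occurred in no other full-length Myh10 transcript or other gene. Compared with Myh10-203, Myh10-201 has an added exon in each of the 2 surface loops of the head, inserts known from neurons. It was 11.6% in replicate 1 and 0% in replicate 2 in the first table, and 6.78% and 4.73% in the second. Capitals mark the inserted exons 6 and 17, of 30 and 63 bases, with 15 bases of flanking exon.
Myh10-201 exon 6: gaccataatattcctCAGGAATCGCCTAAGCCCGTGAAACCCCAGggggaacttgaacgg
Myh10-201 exon 17: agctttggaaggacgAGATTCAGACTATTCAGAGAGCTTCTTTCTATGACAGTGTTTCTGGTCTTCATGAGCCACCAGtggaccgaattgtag
Of the shorter forms, Myh10-204 was 4.26% in replicate 1 against 0% in replicate 2, Myh10-206 8.72% and 11.3%, Myh10-207 2.64% and 5.24%, Myh10-210 2.03% and 3.11% and Myh10-205 0% and 5.24% in the first table. In the second table Myh10-205 was 26.5% in replicate 1 against 0% in replicate 2, and Myh10-208 0% and 6.64%. These shares rested on 12.82 estimated counts of Myh10-205 in replicate 1 and 1.014 of Myh10-208 in replicate 2.

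For Myh11 the annotation holds both classic choices of smooth muscle myosin. Myh11-204 has a 21-base exon 6 in a loop near the ATP-binding site, the SM-B insert, and Myh11-202 a 39-base exon 41 whose TGA stop begins at base 29, which gives the shorter SM2 tail.
Myh11-204 exon 6: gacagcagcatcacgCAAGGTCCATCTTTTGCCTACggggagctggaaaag
Myh11-202 exon 41: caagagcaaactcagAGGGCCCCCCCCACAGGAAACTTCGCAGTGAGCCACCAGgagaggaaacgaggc
Capitals mark the exons, which lie at chr16:14248580-14248600 and chr16:14198050-14198088 on the minus strand. Myh11-201, which has neither, held 80.2% of TPM in replicate 1 and 62.9% in replicate 2, and Myh11-204 15.9% and 26.4%. Myh11-202 was 1.05% in replicate 1 against 7.02% in replicate 2, on 13.98 and 97.02 expected counts. The second table gave 73.7% in replicate 1 against 56.0% in replicate 2 to Myh11-201, 22.0% and 31.3% to Myh11-204, and 1.62% and 10.1% to Myh11-202. In both tables replicate 1 was thus higher in the form without either exon, and the retained-intron Myh11-203 stayed under 4%. The deposited intervals of Myh11-201 overlapped between the animals (4.457 to 5.799 and 3.485 to 5.010 TPM). So did those of Myh11-204 (0.540 to 1.72 and 1.23 to 2.64 TPM) and Myh11-202 (0.00376 to 0.361 and 0.236 to 0.903 TPM).

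Myh14-202 led Myh14 at 63.7% in replicate 1 against 63.6% in replicate 2 in the first table and 57.6% and 64.4% in the second. Myh14-201 adds a 24-base exon 6, in the same head loop as exon 6 of Myh10-201, and was 3.11% in replicate 1 against 13.6% in replicate 2 in the first table but 6.05% and 5.42% in the second.
Myh14-201 exon 6: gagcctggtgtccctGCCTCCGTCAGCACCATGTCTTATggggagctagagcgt
Myh14-204, with an extra exon of 123 bases, was 2.44% in replicate 1 against 0% in replicate 2. The noncoding Myh14-205 was 21.4% in replicate 1 against 12.4% in replicate 2 in the first table and 6.51% and 0% in the second. Myh14-207, of 471 bases, was 9.32% in replicate 1 against 10.4% in replicate 2 in the first table and 27.8% and 22.1% in the second, and Myh14-209 appeared in the second table alone, at 0% and 8.13%. Their second-table shares rested on 15.22 and 12.18 estimated counts of Myh14-207 and on 6.050 of Myh14-209 in replicate 2.

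**Figure D4:**
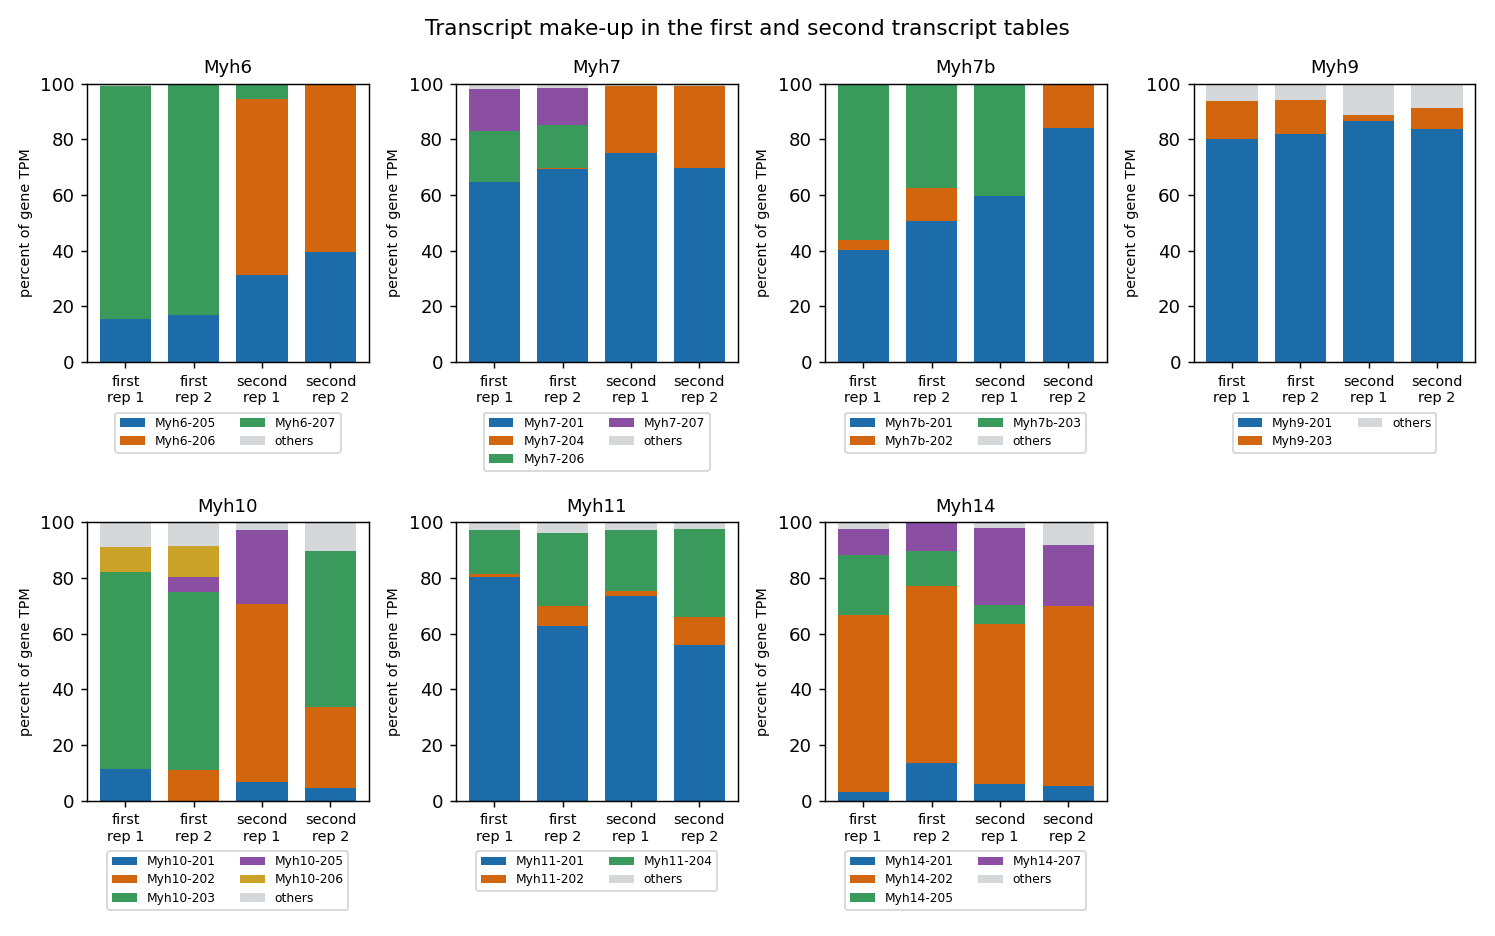
Percent of each gene's TPM carried by its transcripts in the first and second transcript tables, replicate 1 left of replicate 2 in each; transcripts under 10% everywhere are grey. Myh7, Myh9, Myh11 and Myh14 have the same leading form in all 4 bars, whereas Myh6 changes from Myh6-207 in the first table to Myh6-206 in the second.

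Of the annotated antisense RNAs, 3 had a single read in 1 animal. Mhrt, an antisense RNA of the Myh7 locus, had 0 expected counts in replicate 1 and 1 in replicate 2, Gm31251 1 and 0, and 2310016G11Rik at Myh14 0 and 1. Gm49130 and Gm29015 were at 0, which allows up to 3 reads, or 0.0812 CPM in replicate 1 and 0.0774 CPM in replicate 2. Trpc4ap, which overlaps the end of Myh7b on the other strand, had 3102 expected counts in replicate 1 against 3319 in replicate 2, far more than the 51.0 and 80.0 of Myh7b. The overlap of the 2 genes is short, chr2:155634271-155634307. Gm17428 and Gm22107, too short to be counted or nearly so, and the pseudogene Gm18256 were also at 0.

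The promoters of Myh7 and Myh6 are shown because these genes had the ratios furthest from 0. The MCAT motif, CATTCC on either strand, was found in the Myh7 promoter from -201 to -196 and the Myh6 promoter from -206 to -201, in both on the opposite strand, and in that of Myh10 from -7 to -2, but not in the windows of Myh7b, Myh9, Myh14 or a second Myh7 start. It occurred in 12.6% of the 32851 RefSeq promoter windows (GRCm38.p6), each searched over all 250 bases upstream of its start. The MEF2 site (2.92% of promoters) and the CArG box (1.47%) were not found in the windows of the 6 members with an entry, and the Myh11 promoter was not analysed here. Capitals mark the motif as it reads on the gene's strand (GGAATG), in stretches upstream of the starts written 5′ to 3′ on the minus strand, at chr14:54994627-54994876 for Myh7 (250 bases) and chr14:54966642-54966857 for Myh6 (216 bases, shortened where an exon of Myh6-201 overlaps the window).
Myh7: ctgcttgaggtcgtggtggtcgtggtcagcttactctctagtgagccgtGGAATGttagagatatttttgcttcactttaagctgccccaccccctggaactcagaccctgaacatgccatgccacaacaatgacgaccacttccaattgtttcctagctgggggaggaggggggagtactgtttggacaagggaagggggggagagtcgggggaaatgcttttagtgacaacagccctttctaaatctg
Myh6: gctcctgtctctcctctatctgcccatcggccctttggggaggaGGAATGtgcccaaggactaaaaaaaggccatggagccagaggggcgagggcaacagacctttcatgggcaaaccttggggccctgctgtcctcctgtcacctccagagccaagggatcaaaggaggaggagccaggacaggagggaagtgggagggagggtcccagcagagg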

How the data were processed

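Each library had a gene table and 2 transcript tables, on mm10 with GENCODE annotation M21 per the file headers and deposited notes. Deposited values were expected counts (estimated, not always whole) and TPM, with a posterior mean and credibility bounds whose level the sources used here do not state. The deposited percent of each gene carried by each transcript was recomputed from transcript TPM. Column layouts are those of RSEM (gene and first transcript table) and kallisto (second transcript table), but the sources used here do not state the quantifiers, aligner or versions. The first tables assume 100-base reads.

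TPM is relative to all listed features; the 7SL RNA genes alone took 32.8% of TPM in replicate 1 and 29.0% in replicate 2, so nuclear protein-coding TPM was tried as an alternative. Others were the posterior mean, the second transcript table, counts over size factors, pseudocount 1 in place of 0.1, other count minimums, and each replicate left out. A rounded-count chi-square over 16562 genes gave 31.9 per degree of freedom, more than counting noise within 1 library would give, though 2 preparations from 1 animal could differ as much. The fold rule was tested on simulated data whose changes were all larger than 2-fold, so that test does not cover ratios close to 2-fold. With 1 group there are no p-values. Intervals and floors cover counting and read assignment only. The members and lists were chosen with earlier results of these data known. Named were all transcripts of the 7 genes reaching 0.1 TPM, overlapping genes and, per partner list, the 2 highest, the lowest, the largest log2 ratio at a mean of at least 1 TPM and, for Myh7 and Myh11, the 3 nearest ratios. Zipk, Mkl1 and Mkl2 were not matched by symbol. Sequences came from the M21 transcripts and RefSeq. Coding sequences were aligned with MAFFT 7.526, and tables were handled in Python 3.11.15 with pandas 2.3.3 and SciPy 1.17.1.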

Additional observations from a re-analysis of the deposited data

How the results depend on the processing

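Summed over the 7 genes, the mean of 116 TPM became 280 TPM when TPM was rescaled to nuclear protein-coding genes and 78.2 TPM when only full-length coding transcripts were counted, a view added after the data were seen. The Myh7 share of the slow and cardiac genes, 81.7% on average, was 81.1% with the posterior mean, 85.8% in the second transcript table and 94.4% with full-length transcripts. The number of the 7 genes past the fold rule was 1, but 0 in the second transcript table and with nuclear protein-coding TPM, where Myh7 fell just short (log2 ratio -0.96 with nuclear protein-coding TPM). It was 2 with counts over size factors and 2 at 1.5-fold, where Myh6 joined it. Over all genes, the 329 past the rule became 458 in the second transcript table and 407 with nuclear protein-coding TPM. They became 346 with counts over size factors and 1226 at 1.5-fold. With a pseudocount of 1 they were 133, with a mean count of at least 200 146, and with no count filter 2056. Leaving out each replicate in turn gave 94.4 to 137 TPM for the sum, 25.0% to 43.1% for the nonmuscle share and 81.4% to 82.1% for the Myh7 share. The second table ordered Myh14, Myh11 and Myh6 differently, with Myh6 at 7.51 TPM. The causes were not tested. Low counts limit Myh7b and the short transcripts. No paired analysis was possible because there is 1 group.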
